A study of Mus musculus with 55 samples.

Results

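The late response of macrophage chromatin to lipopolysaccharide (LPS) was followed in cells that all received the milk sugar 3'-sialyllactose (3'SL), by comparing acetylation of histone H3 at lysine 27 (H3K27ac) after 6 h of 3'SL with LPS and after 6 h of 3'SL alone. The comparison used 4 libraries chosen by their labels, 2 of each group, out of 55 samples in the series, and the pairs were formed by replicate number. The cells were bone marrow-derived macrophages of C57BL/6 mice, grown from marrow with L-cell conditioned medium as a source of M-CSF. They were starved of serum overnight before treatment. 3'SL was given at 100 µg/ml and LPS at 10 ng/ml. Because both groups carry 3'SL, the comparison shows the effect of LPS in its presence and not the effect of 3'SL itself. The reference comparisons were the same pair of treatments at 2 h, LPS against the vehicle PBS at 6 h without 3'SL, and p300 binding at 6 h in the same pair of treatments.

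LPS is a component of the outer membrane of Gram-negative bacteria that binds TLR4 on macrophages. TLR4 signals through the adaptor MyD88 to NF-kB and AP-1, and through TRIF to IRF3, type I interferon and the STAT factors that drive interferon-stimulated genes. H3K27ac, placed by p300 and its relative CBP, marks active promoters and enhancers, and its level is widely used as a readout of the activity of regulatory DNA. 3'SL is lactose carrying a sialic acid, the kind of sugar that Siglec receptors of immune cells bind.

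The 4 libraries held 16.8 M and 4.20 M tags with 3'SL alone (replicates 1 and 2) and 15.9 M and 39.6 M with 3'SL and LPS, so that the shallowest and the deepest library of the comparison were both of replicate 2. Windows around the 97113 regions, which are merged ATAC peaks, took up 54.1% and 78.5% of the tags with 3'SL alone and 53.9% and 73.2% with LPS added, against 8.65% and 8.80% in 2 input libraries. The replicate 2 library with LPS is titled as H3K27ac of 3'SL and LPS at 6 h, but its source name is that of an input, its label names no antibody, and its time stands in the title alone. Its share of tags in regions was unlike that of the inputs, and the title was followed. Nothing in the labels says that replicates were separate animals or cultures, so the spread behind the p-values is that between libraries and may be technical in origin. Values are normalised tags, that is, deposited tags per 10000000 rescaled between libraries. Adjusted p-values are from limma's moderated test over all regions or genes, with the replicate number as a block and a threshold of 0.05. For the comparison at 6 h under 3'SL, adjusted p-values without the block are given for named genes and regions whose call changes.

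With LPS added for 6 h, H3K27ac rose around inflammatory and interferon-stimulated genes. Of 43 genes of NF-kB inflammation 20 rose, but only 8 without the replicate block. Of 40 genes of the interferon response 19 rose, but only 1 without the block. H3K27ac fell around a set that includes Ramp1, a co-receptor gene, which kept the call without the replicate block. St6gal1, a sialyltransferase, Gpr34, a lysophospholipid receptor, and Slco2b1, an organic anion transporter, also fell but lost the call without it. Acod1, which makes itaconate from the citric acid cycle, and Ptges, which makes prostaglandin E2, were among the largest changes. In all, 912 of 16710 genes rose (5.46%) and 530 fell (3.17%). Without the replicate block 94 rose (0.563%) and 18 fell (0.108%). By region, 5071 of 77387 rose (6.55%) and 2479 fell (3.2%), and without the block 439 rose (0.567%) and 59 fell (0.0762%). A gene's value is the sum over regions within 100 kb whose nearest start is that gene's, so a name can be that of a neighbour. In bulk chromatin, a change in the makeup of the cells and a change of acetylation per cell cannot be told apart.

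Among genes that rose, the log2 change ran from 0.52 to 5.77 with a median of 1.24, and among those that fell from -3.06 to -0.56 with a median of -1.10, against 0.08 over all genes. Both replicate pairs had the sign of the call for all 912 and all 530, which a call in a paired fit nearly fixes; of all genes tested, 38.3% were above 0 in both pairs and 27.1% below 0 in both. The groups did not overlap for 831 of the 912 and 442 of the 530, beside 33.8% of all genes tested. The counts depended on the libraries. Without the replicate 1 or the replicate 2 library of 3'SL with LPS, 282 and 378 genes rose and 147 and 192 fell. Without the replicate 1 or the replicate 2 library of 3'SL alone, 622 and 407 rose and 176 and 268 fell. On the authors' scaling, which shifts the median of all genes from 0.08 to -0.08, 578 genes rose and 828 fell. The plot of both replicate pairs shows the genes called in each direction.

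**Figure D1:**
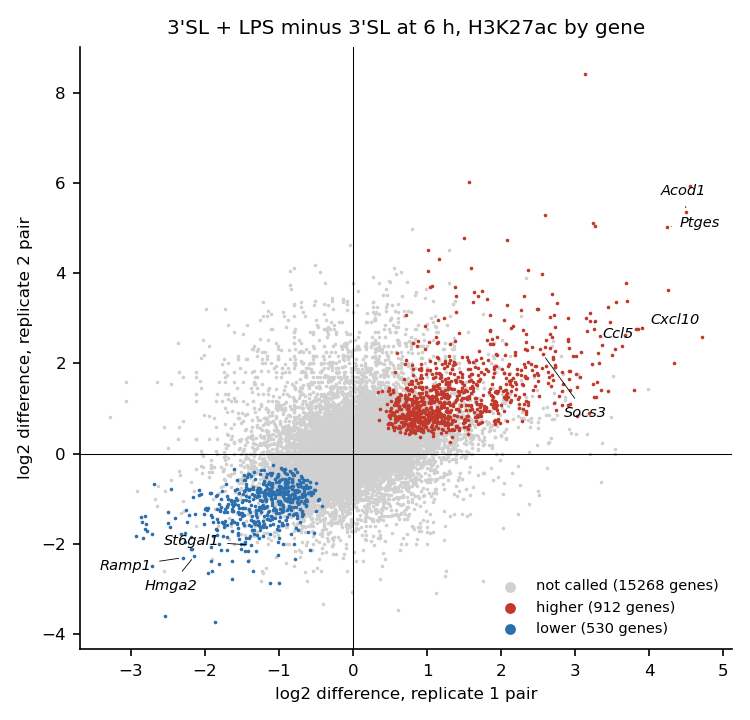
Each point is a gene, with the log2 difference between 3'SL with LPS and 3'SL alone at 6 h in the replicate 1 pair (x axis) and in the replicate 2 pair (y axis). The 912 genes that rose lie above 0 in both pairs and the 530 that fell below 0 in both, whereas the genes not called spread along both axes.

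The region with the largest rise was the promoter of Acod1, in the window chr14:103046583-103047583 of the build mm10, 71 bp from the start. It held 18.1 and 0 normalised tags with 3'SL alone and 534 and 233 with LPS added (log2 change 6.34, SE 0.64, adjusted p = 4.49e-05). A region 8627 bp from the start of Socs3, a feedback inhibitor of cytokine receptors, in an intergenic stretch, held 4.02 and 0 normalised tags with 3'SL alone and 179 and 153 with LPS added (log2 change 6.21, SE 0.49, adjusted p = 8.81e-06). Both regions were far higher in each library with LPS than in either control. Control replicate 2, the shallowest library, held 0 tags in each of the 8 regions with the largest rises, so these fold changes depend on the value added before taking logarithms. The region near Fpr1, a formyl peptide receptor, had only 3 tags in both controls together, and its ratio was 72.5 with an exact 95% counting interval of 24.7 to 353. The other 5 lay near Ifi209, an interferon-inducible gene, Alpk2, Mir147 and the non-coding genes 4930529L06Rik and 4933432I03Rik. The 4933432I03Rik region, chr14:103011488-103012488, neighbours the Acod1 window. The 4930529L06Rik region is at chr16:84605014-84606014, and the promoter of Mir155hg, which also rose, is at chr16:84712773-84713072. Without the block 7 of the 8 kept the call, and Ifi209 had an adjusted p of 0.0954. By edgeR without the block, only 4 of the 16 regions named for the largest rises and falls kept it.

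The 8 regions with the largest falls included one near Hpgd, which encodes the enzyme that inactivates prostaglandins, and one in the first intron of Foxp1, a transcription factor gene. The Hpgd region, 9423 bp from the start, held 60.4 and 50.5 normalised tags with 3'SL alone and 9.2 and 2.76 with LPS added (log2 change -3.18, SE 0.70, adjusted p = 0.00916). An intronic region of Usp49, a deubiquitinase gene, held 204 and 212 normalised tags with 3'SL alone and 8.44 and 50.4 with LPS added (log2 change -3.25, SE 0.43, adjusted p = 0.00034). In both, each library with LPS lay below both controls. Of these 8, only the region of 1700027F06Rik kept the call without the block (adjusted p = 0.0451), and the others had 0.0576 to 0.149. Hpgd lost the call without 3'SL with LPS replicate 2 (adjusted p = 0.157) or 3'SL alone replicate 1 (0.075), and Foxp1 without 3'SL with LPS replicate 2 (0.127) or 3'SL alone replicate 2 (0.0849).

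To show the DNA of such regions, the central 200 bases of 7 of them are printed 5′ to 3′ on the plus strand of mm10, with motif matches in capitals. The motifs searched on both strands were those of NF-kB (GGGA, any base, then TTTCC), the interferon-stimulated response element or ISRE (GAAA, any pair of bases, then GAAA), AP-1 (TGANTCA), PU.1 (GAGGAAGT), C/EBP (TTGCNNAA) and STAT (TTCCNGGAA). The Acod1 and Socs3 regions are the largest rises. The other 5 were chosen after their values were seen, as regions that changed and hold a motif, and a match is a description of letters, not evidence of binding. The Acod1 promoter, centre chr14:103046984-103047183, has a C/EBP match. The Socs3 region, centre chr11:117977894-117978093, has a PU.1 and a C/EBP match. An intronic region of Ube2z, centre chr11:96058389-96058588, has an NF-kB match. A region 40985 bp from the start of Acsl1, an acyl-CoA synthetase gene, centre chr8:46429953-46430152, has a STAT match between a pair of AP-1 matches. A region 20376 bp from Csf3r, the G-CSF receptor gene, centre chr4:126004184-126004383, has an ISRE and a STAT match. Among regions that fell, introns of Slco2b1, centre chr7:99674226-99674425, and of Hpgd, centre chr8:56313660-56313859, each have a PU.1 match.
Acod1: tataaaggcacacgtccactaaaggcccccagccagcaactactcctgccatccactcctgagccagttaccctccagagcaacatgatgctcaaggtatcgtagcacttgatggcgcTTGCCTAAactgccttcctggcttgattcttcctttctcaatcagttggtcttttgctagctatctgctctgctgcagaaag
Socs3: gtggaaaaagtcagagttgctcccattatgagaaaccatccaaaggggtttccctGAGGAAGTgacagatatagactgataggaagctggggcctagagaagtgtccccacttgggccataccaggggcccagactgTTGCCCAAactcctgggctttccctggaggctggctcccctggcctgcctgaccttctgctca
Ube2z: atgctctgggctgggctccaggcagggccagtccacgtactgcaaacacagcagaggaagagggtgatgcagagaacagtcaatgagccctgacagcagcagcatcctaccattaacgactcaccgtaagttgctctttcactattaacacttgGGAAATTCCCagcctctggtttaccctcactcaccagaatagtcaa
Acsl1: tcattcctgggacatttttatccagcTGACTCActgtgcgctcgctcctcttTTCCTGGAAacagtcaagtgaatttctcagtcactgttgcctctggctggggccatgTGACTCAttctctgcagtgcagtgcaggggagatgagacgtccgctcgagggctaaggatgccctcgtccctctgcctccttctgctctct
Csf3r: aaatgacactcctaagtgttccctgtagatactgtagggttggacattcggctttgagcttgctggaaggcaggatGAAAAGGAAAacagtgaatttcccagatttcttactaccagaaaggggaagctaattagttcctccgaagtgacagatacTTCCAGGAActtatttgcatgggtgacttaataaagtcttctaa
Slco2b1: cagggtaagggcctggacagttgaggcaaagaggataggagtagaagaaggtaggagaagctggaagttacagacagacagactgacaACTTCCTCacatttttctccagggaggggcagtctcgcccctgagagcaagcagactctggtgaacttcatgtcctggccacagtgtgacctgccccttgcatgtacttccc
Hpgd: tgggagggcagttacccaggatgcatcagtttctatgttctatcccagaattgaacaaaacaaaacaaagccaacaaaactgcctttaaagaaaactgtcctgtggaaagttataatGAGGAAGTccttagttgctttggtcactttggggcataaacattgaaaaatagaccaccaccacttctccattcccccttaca

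The Ube2z region held 4.69 and 2.02 normalised tags with 3'SL alone and 82.8 and 69.7 with LPS added (log2 change 4.21, SE 0.43, adjusted p = 4.75e-05). The Acsl1 region held 15.4 and 10.1 normalised tags with 3'SL alone and 269 and 195 with LPS added (log2 change 4.09, SE 0.31, adjusted p = 6.1e-06), and the Csf3r region 17.4 and 4.04 normalised tags with 3'SL alone and 134 and 153 with LPS added (log2 change 3.90, SE 0.53, adjusted p = 0.000385). All 3 were low in both controls and higher in both libraries with LPS, and all 3 kept the call without the block (adjusted p = 0.00626, 0.0023 and 0.0227). Regions with an NF-kB match near 4933402J15Rik, Vmn1r39 and Nrp2 rose by more than that of Ube2z but lost the call without the block (0.142, 0.112 and 0.167). So did risen regions with an ISRE near Kdr and Tnfaip3 (0.0792 and 0.0993) and with a STAT match near Thg1l and Bcl2a1a (0.0507 and 0.147). The Slco2b1 intron went the other way, with 168 and 156 normalised tags with 3'SL alone and 15.3 and 30.3 with LPS added (log2 change -2.85, SE 0.30, adjusted p = 6.04e-05), and it kept the call without the block (adjusted p = 0.0171). The Hpgd intron held 102 and 105 normalised tags with 3'SL alone and 14.6 and 8.02 with LPS added (log2 change -3.14, SE 0.59, adjusted p = 0.00363), and its adjusted p without the block was 0.0784. In these 2 introns both libraries with LPS were below both controls.

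Motif matches were counted in the central 200 bp of regions that rose, regions that fell and all regions tested. The NF-kB motif was in 2.76% of the 5071 regions that rose, 0.12% of the 2479 that fell and 0.69% of all 77387. The ISRE was in 9.23%, 2.02% and 3.51%, the STAT motif in 1.40%, 0.48% and 0.72%, and the AP-1 motif in 24.2%, 18.6% and 18.4%. The PU.1 motif, of the factor that opens macrophage enhancers, showed the other order, with 8.50% of regions that rose, 13.5% of those that fell and 9.80% of all. C/EBP matches were in 13.6%, 14.0% and 10.7%. Among the regions called without the block, 439 that rose and 59 that fell, the NF-kB motif was in 4.56% and 0%, the ISRE in 9.11% and 1.69%, the STAT motif in 2.28% and 0%, the AP-1 motif in 19.4% and 16.9%, the PU.1 motif in 6.61% and 8.47%, and the C/EBP motif in 16.6% and 16.9%. PU.1 in regions that fell thus lay above the share of all regions with the block and below it without the block. Read by motif, 26.2% of the 534 regions with the NF-kB motif rose, against 6.42% of those without it, and 17.2% of the 2714 with the ISRE, against 6.16%. These shares are given as descriptions, with no test, because regions share genes and libraries.

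In the series, the LXR and SREBP libraries were titled as given GW3965, and the p65 libraries as re-analysed, untreated or given KLA. None of them was titled as 3'SL or LPS, so these peaks are not of the cells compared. Deposited p65 peaks, of the NF-kB subunit, overlapped 8.22% of the regions that rose, 3.19% of those that fell and 4.29% of all. LXR peaks overlapped 36.4%, 64.1% and 34.3%, and SREBP peaks 39.01%, 59.6% and 33.0%. The level of the mark differed too. The median control level was 124 normalised tags in regions that fell, 31.6 in those that rose and 31.9 in all. The control level is itself part of the log2 change, so it is not independent of the calls. Among regions with a mean of at least 100 normalised tags, LXR peaks overlapped 56.7% of those that rose, 78.6% of those that fell and 60.9% of all. Among regions with a mean under 100, LXR peaks overlapped 19.7%, 53.5% and 23.96%. The LXR share was thus highest in regions that fell at both levels. The part of the level in this difference was not tested. Promoters, within 1000 bp of a start, made up 14.6% of the regions that rose, 14.1% of those that fell and 24.4% of all.

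**Figure D2:**
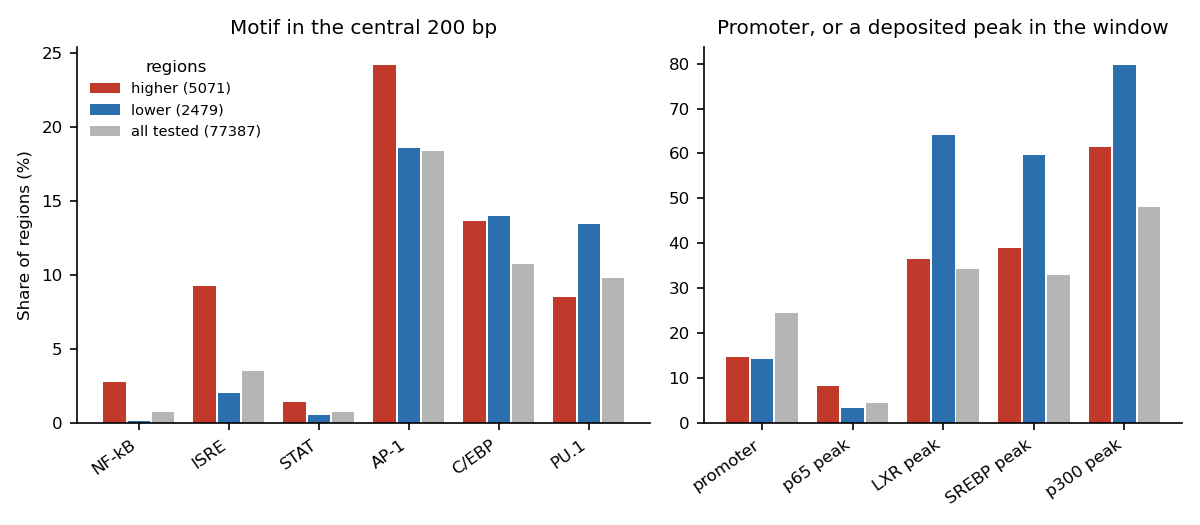
Bars give the share of regions in percent that rose (5071), fell (2479) or were tested (77387). On the left each group of bars is a motif in the central 200 bp, and on the right promoters and overlap with a deposited peak. NF-kB and ISRE matches are most frequent in regions that rose, and LXR, SREBP and p300 peaks in those that fell. The LXR, SREBP and p65 libraries of the series were of other treatments.

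Of 43 measured genes of NF-kB inflammation, 20 rose and none fell, beside 5.46% and 3.17% of all genes. The median log2 change of the list was 0.87 against 0.08 over all genes. Acod1 held 27.5 and 6.06 with 3'SL alone and 644 and 289 with LPS added (log2 change 4.93, SE 0.37, adjusted p = 2.02e-05). Nos2, the inducible nitric oxide synthase, held 117 and 46.5 with 3'SL alone and 594 and 296 with LPS added (log2 change 2.49, SE 0.28, adjusted p = 0.000355). Socs3 held 400.4 and 630.4 with 3'SL alone and 2374 and 2899 with LPS added (log2 change 2.38, SE 0.20, adjusted p = 4.24e-05). Each of the 3 genes was higher in both libraries with LPS than in either control, and each kept the call without the block and without any 1 of the 4 libraries. Sod2, the mitochondrial superoxide dismutase, rose by 2.33 (adjusted p = 0.000185) and Nfkbie, an inhibitor of NF-kB, by 2.19 (adjusted p = 0.000328). Edn1, the gene of endothelin-1, was even between replicates, with 514 and 548 with 3'SL alone and 1623 and 1611 with LPS added (log2 change 1.61, SE 0.16, adjusted p = 0.000136). In regions within 1000 bp of its start alone, the change of Edn1 was 0.98 and was not called (adjusted p = 0.124).

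Cytokine genes of the list had the following values. Il1b, an interleukin-1 gene, held 299 and 655 with 3'SL alone and 1137 and 1339 with LPS added (log2 change 1.48, SE 0.26, adjusted p = 0.00419, and 0.0867 without the block). Tnf held 345 and 364 with 3'SL alone and 841 and 688 with LPS added (log2 change 1.10, SE 0.23, adjusted p = 0.0107, and 0.129 without the block). In both genes the groups did not overlap, and both libraries with LPS were above both controls. Il1a rose by 1.38 (adjusted p = 0.0265, and 0.399 without the block), and Cd40, a costimulatory receptor, by 2.01 (adjusted p = 0.00594, and 0.0728). Over merged H3K27ac peaks in place of ATAC regions, the change of Cd40 was 0.39 and was not called (adjusted p = 0.503). Il6 was at 88.5 and 143 with 3'SL alone and 160.3 and 220.0 with LPS added and was not called (adjusted p = 0.288), and Il12b was at 288 and 265 with 3'SL alone and 334 and 315 with LPS added (adjusted p = 0.649). Among the 23 members not called, the change ran from -0.66 for Mmp13 to 1.09 for Csf2. Il1b kept the call without any 1 library. Tnf lost it without 3'SL with LPS replicate 1 (adjusted p = 0.101) or 2 (0.0656) or 3'SL alone replicate 1 (0.0919). Il1a lost it without 3'SL with LPS replicate 1 (0.103) or 2 (0.2) or 3'SL alone replicate 1 (0.244), and Cd40 without 3'SL with LPS replicate 1 (0.0797) or 3'SL alone replicate 1 (0.0517). Of the list, 8 genes rose without the block, and leaving out 1 library gave 11 without replicate 1 of either group, 12 without 3'SL with LPS replicate 2 and 14 without 3'SL alone replicate 2.

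Of 40 measured genes of the interferon response, 19 rose and none fell, beside 5.46% and 3.17% of all genes. The median log2 change of the list was 1.69 against 0.08 over all genes. Cxcl10, a chemokine, held 36.9 and 48.5 with 3'SL alone and 546 and 338 with LPS added (log2 change 3.31, SE 0.49, adjusted p = 0.00161, and 0.0358 without the block). Ccl5, a chemokine, held 242 and 99 with 3'SL alone and 2239.9 and 769 with LPS added (log2 change 3.07, SE 0.23, adjusted p = 2.02e-05, and 0.0583 without the block). Gbp5, a guanylate-binding GTPase, held 90.5 and 64.7 with 3'SL alone and 1298 and 446 with LPS added (log2 change 3.30, SE 0.40, adjusted p = 0.000475, and 0.106). The 3 genes had no overlap between the groups, with both libraries with LPS above both controls, and each kept the call without any 1 library. Ifi205 rose from 18.1 and 8.08 to 244 and 124 (log2 change 3.73, SE 0.54, adjusted p = 0.00143, and 0.125). Other members that rose were Mx1, an antiviral GTPase (2.59), Irf7, a factor that amplifies interferon (2.39), Isg15, a ubiquitin-like modifier (1.92), and Rsad2, an antiviral enzyme (1.92), and none of these 4 kept the call without the block (adjusted p = 0.125, 0.171, 0.112 and 0.251). Ifnb1, the interferon gene itself, was at 0.74 and was not called (adjusted p = 0.276). The list was larger in the replicate 1 pair (median 2.28) than in the replicate 2 pair (median 1.09). Without the block 1 of the 40 rose, and the numbers were 6 and 8 without 3'SL with LPS replicate 1 and 2, and 5 and 17 without 3'SL alone replicate 1 and 2.

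The promoters of Cxcl10 and Gbp5 were inspected because their windows rose and because they hold matches of the LPS pathway; both were chosen after their values were seen. The Cxcl10 window at 73 bp from the start held 10.7 and 18.2 normalised tags with 3'SL alone and 190.2 and 83.4 with LPS added (log2 change 3.08, SE 0.42, adjusted p = 0.000365), and the Gbp5 window at 155 bp held 28.8 and 28.3 normalised tags with 3'SL alone and 429 and 194 with LPS added (log2 change 3.29, SE 0.48, adjusted p = 0.000662, and 0.0839 without the block). Both libraries with LPS exceeded both controls in each window. The RefSeq promoter sequences, from GRCm38.p6 with 250 bases before and 50 after the start on the gene's strand, are Cxcl10 at chr5:92348840-92349139 (minus strand) and Gbp5 at chr3:142496684-142496983 (plus strand). Capitals mark an ISRE at position 38 and an AP-1 match at 177 in Cxcl10, and an ISRE at 86 and an NF-kB match at 174 in Gbp5, counted from the first base printed.
Cxcl10: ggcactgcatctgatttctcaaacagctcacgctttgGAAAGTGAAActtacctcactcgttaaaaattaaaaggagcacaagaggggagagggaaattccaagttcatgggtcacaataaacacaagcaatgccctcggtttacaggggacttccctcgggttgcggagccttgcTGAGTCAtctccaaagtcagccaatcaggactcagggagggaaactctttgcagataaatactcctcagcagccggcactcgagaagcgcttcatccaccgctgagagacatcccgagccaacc
Gbp5: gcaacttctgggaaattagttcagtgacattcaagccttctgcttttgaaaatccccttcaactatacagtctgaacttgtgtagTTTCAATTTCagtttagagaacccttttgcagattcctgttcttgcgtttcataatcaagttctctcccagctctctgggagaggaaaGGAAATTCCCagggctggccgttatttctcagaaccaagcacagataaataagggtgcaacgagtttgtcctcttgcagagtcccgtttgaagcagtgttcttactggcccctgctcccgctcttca
Of 27025 promoters of that length, 3.49% held the ISRE, 0.385% the NF-kB motif and 7.93% the AP-1 motif, and of the 12507 promoters of genes tested, 3.10%, 0.392% and 6.10%. Of the 689 promoters of genes that rose, 6.82%, 0.581% and 8.999% held them, and of the 372 of genes that fell, 4.30%, 0.269% and 5.38%.

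Of the receptor and signalling genes of TLR4, 3 of 24 rose and none fell, with a median of 0.30, beside 5.46% and 3.17% of all genes. They were Myd88, the adaptor (1.15, adjusted p = 0.00748), Irak2, a kinase (0.92, 0.00802), and Tab2, which links the kinase TAK1 to its activators (0.72, 0.0239). None kept the call without the block (adjusted p = 0.16, 0.299 and 0.52). Tlr4 itself was at -0.31 (adjusted p = 0.449) and its co-receptor Cd14 at 0.05 (adjusted p = 0.946). Tab2 lost the call without any 1 of the 4 libraries (adjusted p = 0.0642 to 0.162), and Irak2 without any but 3'SL with LPS replicate 2 (0.0522 to 0.121). Myd88 lost it without 3'SL with LPS replicate 2 (0.0904) or 3'SL alone replicate 1 (0.0686).

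Of 21 feedback and resolution genes, 6 rose and none fell, with a median of 0.60, beside 5.46% and 3.17% of all genes. Socs3, which is also counted in the NF-kB list above, and Dusp2, a phosphatase of MAP kinases, kept the call without the block. Dusp2 held 169 and 218 with 3'SL alone and 817 and 795 with LPS added (log2 change 2.06, SE 0.28, adjusted p = 0.00104, and 0.0244 without the block). Socs1, which inhibits interferon receptors, held 404 and 379.9 with 3'SL alone and 1019 and 1034 with LPS added (log2 change 1.39, SE 0.22, adjusted p = 0.0023, and 0.118 without the block). Il1rn, the interleukin-1 receptor antagonist, held 243 and 109 with 3'SL alone and 541 and 612 with LPS added (log2 change 1.81, SE 0.47, adjusted p = 0.0295, and 0.284 without the block). In these 3 genes the groups did not overlap, and the controls of Il1rn were uneven. The NF-kB inhibitors Nfkbia (1.18, adjusted p = 0.00612) and Tnfaip3 (0.95, 0.0101) rose by smaller amounts and lost the call without the block (0.301 and 0.432). Il10, an anti-inflammatory cytokine, was at 0.60 (adjusted p = 0.115). Il1rn and Tnfaip3 lost the call without any 1 of the 4 libraries (adjusted p = 0.0508 to 0.28), and Nfkbia without replicate 2 of 3'SL with LPS (0.0784) or of 3'SL alone (0.0577). Of 17 genes of the AP-1 family 2 rose and 1 fell, counts near what those shares of all genes give in a list this small. Batf (1.30, adjusted p = 0.000941) and Batf2 (1.53, 0.035) rose. Fosb fell, from 290.4 and 725 to 114 and 249 (log2 change -1.44, SE 0.19, adjusted p = 0.000749). The 3 lost the call without the block (0.129, 0.2 and 0.547), and Batf2 also without any 1 of the 4 libraries (0.0944 to 0.189).

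**Figure D3:**
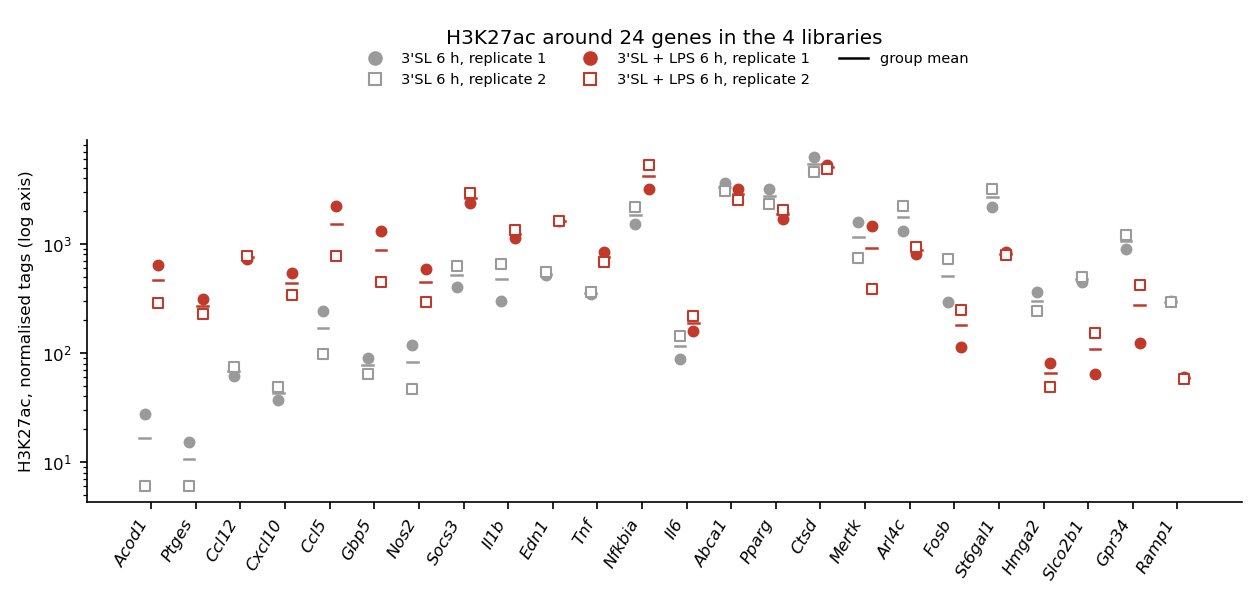
Normalised tags (log axis) around 24 genes in the 4 libraries, with circles for replicate 1, squares for replicate 2 and a short line for each group mean. Libraries with LPS lie above both controls for genes such as Acod1, Socs3 and Edn1, and below them for St6gal1, Slco2b1 and Ramp1.

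Among genes outside the lists with the largest rises, Ptges held 15.4 and 6.06 with 3'SL alone and 309.9 and 229 with LPS added (log2 change 4.63, SE 0.40, adjusted p = 4.24e-05). Mir155hg, the host of the inflammatory microRNA miR-155, held 23.5 and 12.1 with 3'SL alone and 466 and 161 with LPS added (log2 change 3.94, SE 0.29, adjusted p = 2.02e-05). Mmp14, a membrane metalloproteinase, held 111 and 18.2 with 3'SL alone and 1055 and 664 with LPS added (log2 change 4.18, SE 0.56, adjusted p = 0.000941, and 0.101 without the block). All 3 were higher in both libraries with LPS. Ccl12, a chemokine, rose by 3.46 (adjusted p = 0.000535), Zbp1, a sensor of nucleic acid, by 3.35 (adjusted p = 0.00176), and Cp, ceruloplasmin, by 3.35 (adjusted p = 0.0016). The name with the largest change, Zfp811 (5.77, 0.079 without the block), rests on 2 regions and lost the call without 3'SL with LPS replicate 2 (adjusted p = 0.0621).

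Among genes that fell, Ramp1, a co-receptor of the CGRP receptor, held 298 and 293 with 3'SL alone and 59.8 and 58.4 with LPS added (log2 change -2.30, SE 0.22, adjusted p = 8.31e-05). Slco2b1 held 450.0 and 501 with 3'SL alone and 64.4 and 153 with LPS added (log2 change -2.25, SE 0.25, adjusted p = 0.000258, and 0.0734 without the block). Gpr34 held 903 and 1206 with 3'SL alone and 124 and 422 with LPS added (log2 change -2.18, SE 0.29, adjusted p = 0.000941, and 0.241). In each, both libraries with LPS were under both controls, and the call was kept without any 1 library. In regions within 1000 bp of the start alone, Slco2b1 was at -1.05 and was not called (adjusted p = 0.0951). Hmga2, a chromatin protein of growing cells, fell by 2.21 on the log2 scale (adjusted p = 8.53e-05, and 0.0721 without the block), and Sgsh, a lysosomal sulfatase, by 2.35 (adjusted p = 0.000995, and 0.087). Msrb3, a methionine sulfoxide reductase, fell by 2.21 (adjusted p = 0.00304, and 0.135). The non-coding or unnamed genes 1700027F06Rik, 1700013D24Rik, BC106179 and Mir1960 also fell (log2 changes -3.06, -2.80, -2.60 and -2.18), and of these Mir1960 kept the call without the block (0.0398; the others 0.0638, 0.129 and 0.188). Leaving out 1 library ended the call of 1700013D24Rik for all but 3'SL with LPS replicate 1 (adjusted p = 0.0654 to 0.194), and of BC106179 for all but 3'SL with LPS replicate 2 (0.0548 to 0.153). The window at the start of BC106179 overlaps windows at the start of St6gal1, so some tags count for both. Regions of 1700027F06Rik and 1700013D24Rik that fell are neighbours, with centres chr6:124373630-124373829 and chr6:124359070-124359269.

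Sialic acid genes, of interest because 3'SL carries that sugar, gave 3 that rose and 1 that fell of 19 measured, with a median of 0.12 against 0.08 over all genes. The shares over all genes were 5.46% and 3.17%, and without the block none of the 19 was called. Siglece, an inhibitory Siglec of macrophages, held 86.5 and 131 with 3'SL alone and 327 and 266 with LPS added (log2 change 1.46, SE 0.25, adjusted p = 0.00414, and 0.139 without the block). Siglecg rose by 0.81 and St3gal4, which adds sialic acid to galactose, by 0.84 (adjusted p = 0.0171 and 0.0145, and 0.49 and 0.749 without the block). St6gal1 held 2186 and 3213 with 3'SL alone and 839.9 and 788 with LPS added (log2 change -1.70, SE 0.33, adjusted p = 0.00736, and 0.0867 without the block). Siglece was higher in both libraries with LPS and St6gal1 lower in both. Siglece lost the call without 3'SL with LPS replicate 1 (adjusted p = 0.0676), and St6gal1 without 3'SL with LPS replicate 2 (0.0653) or 3'SL alone replicate 2 (0.0763). St3gal4 lost it without any 1 of the 4 libraries (0.0693 to 0.147), and Siglecg without any but 3'SL with LPS replicate 1 (0.084 to 0.231). Neu1, a sialidase, was at 0.44 and Siglec1 at 0.25, and neither was called.

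The lipid lists are given beside shares over all genes of 5.46% that rose and 3.17% that fell, and without the block none of their members was called. Of 24 genes of cholesterol synthesis, 2 rose and none fell, with a median of 0.67. They were Fdps (1.30, adjusted p = 0.027, and 0.551 without the block) and Idi1 (1.05, 0.0199, and 0.587). Both lost the call when any 1 of the 4 libraries was left out (adjusted p = 0.0896 to 0.208). Of 19 LXR targets, 1 rose and 1 fell, with a median of 0.00. Nr1h3, which encodes LXRα, held 659 and 461 with 3'SL alone and 992 and 796 with LPS added (log2 change 0.69, SE 0.16, adjusted p = 0.0177, and 0.362 without the block), and Arl4c fell (-0.97, adjusted p = 0.0168, and 0.168). Abca1, the cholesterol exporter, was at -0.24 (adjusted p = 0.424) and Apoe at -1.14 (0.113). Among 13 fatty acid genes Acss2, an acetyl-CoA synthetase, rose (1.00, 0.0208, and 0.343 without the block) and Fads1, a desaturase, fell (-0.95, 0.00944, and 0.272). Fads1 lost the call without 3'SL with LPS replicate 2 (adjusted p = 0.104) or 3'SL alone replicate 1 (0.0591), and Nr1h3 without any library but 3'SL alone replicate 1 (0.116 to 0.159). Arl4c lost it likewise (0.0753 to 0.167), and Acss2 without any 1 of the 4 (0.0696 to 0.147). None of 20 glycolysis genes was called, with a median of 0.36.

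Of 24 macrophage identity genes, none rose and 2 fell, with a median of -0.05. Over all genes 5.46% rose and 3.17% fell, and counts of this size in this list and in the lysosomal, MHC class II and housekeeping lists are close to what those shares give in lists this small. Cebpa, a myeloid factor, held 917 and 1249 with 3'SL alone and 429.6 and 767 with LPS added (log2 change -0.90, SE 0.17, adjusted p = 0.00594, and 0.585 without the block), and Mef2a fell by 0.91 (adjusted p = 0.0143, and 0.586). Pparg was at -0.54 and was not called (adjusted p = 0.122), but it passed without 3'SL alone replicate 2 (-0.91, adjusted p = 0.0367) and under 4 other settings. Of 27 lysosomal genes, Ctsz, a cathepsin, rose (1.10, adjusted p = 0.00594, and 0.577 without the block) and Atp6v0d2, a subunit of the proton pump, fell (-1.13, adjusted p = 0.00451, and 0.109), while Ctsd was at -0.08 (adjusted p = 0.827). Atp6v0d2 lost the call without 3'SL with LPS replicate 1 (adjusted p = 0.0527) and Cebpa without replicate 1 of 3'SL with LPS (0.0697) or of 3'SL alone (0.0626). In regions within 1000 bp of its start alone Mef2a was at -0.18 (adjusted p = 0.584). Mef2a lost the call without any library but 3'SL with LPS replicate 2 (0.0511 to 0.173), and Ctsz without replicate 2 of 3'SL with LPS (0.0865) or of 3'SL alone (0.0612). None of 8 MHC class II and of 16 housekeeping genes was called.

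Of 24 cell cycle genes 2 rose and 3 fell, beside 5.46% and 3.17% of all genes, with a median of 0.07 against 0.08 over all genes. None was called without the block. Ccnd1, cyclin D1, held 457 and 372 with 3'SL alone and 655 and 838 with LPS added (log2 change 0.84, SE 0.22, adjusted p = 0.0286, and 0.329 without the block). E2f2, an S-phase factor, held 169.7 and 242 with 3'SL alone and 72.9 and 92.2 with LPS added (log2 change -1.30, SE 0.24, adjusted p = 0.00518, and 0.15 without the block). The groups overlapped in neither gene. Ccnb2 and Top2a, of mitosis, fell by 1.49 and 1.33 (adjusted p = 0.0184 and 0.0312, and 0.756 and 0.767 without the block). Ccnd1 lost the call without 3'SL with LPS replicate 2 (adjusted p = 0.39) or 3'SL alone replicate 1 (0.129) or 2 (0.143), Ccnb2 without any library but 3'SL alone replicate 1 (0.066 to 0.156), and Top2a without any 1 of the 4 (0.0555 to 0.199).

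Macrophage markers carried the mark in the cells. The summed level of 9 of 9 markers was 14085 and 15759.8 with 3'SL alone and 17727 and 18588 with LPS added, and none was called. Neutrophil markers, 8 of 8 measured, summed to 284 and 166 with 3'SL alone and 289 and 174 with LPS added; Camp rose (2.86, adjusted p = 0.0279, and 0.529 without the block) but held 11.4 normalised tags in one control and 0 in the other. Dendritic cell markers, 5 of 5, summed to 1913 and 1915 with 3'SL alone and 1142 and 1317 with LPS added, and Flt3 fell (-1.55, adjusted p = 0.048, and 0.444 without the block). T cell, B cell, fibroblast and erythroid markers gave no call, with 4 of 7, 3 of 6, 3 of 5 and 3 of 6 measured, and their sums stayed between 4.04 and 1538. By edgeR with the block Camp was not called (adjusted p = 0.0919). Camp lost the call without any library but 3'SL alone replicate 1 (0.0738 to 0.25), and Flt3 without any 1 of the 4 (0.0684 to 0.295). The part of such cells in the results above was not tested.

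**Figure D4:**
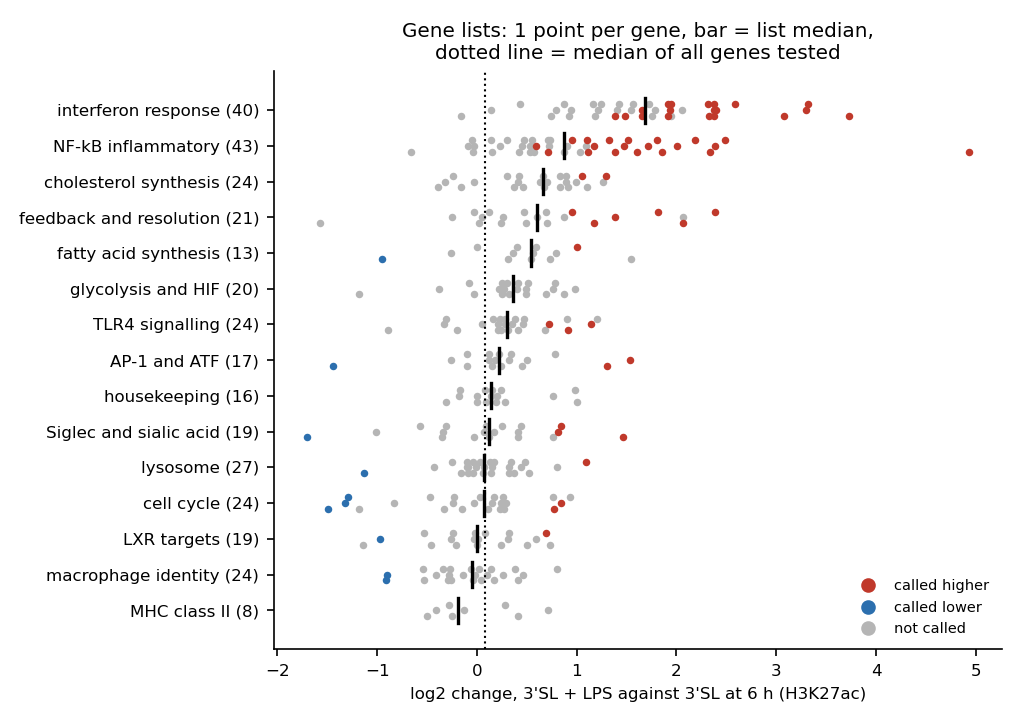
Each point is a gene of a list, placed by its log2 change between 3'SL with LPS and 3'SL alone at 6 h, with red and blue for genes called higher and lower and grey for those not called. The bar is the list median and the dotted line the median of all genes tested (0.08); the interferon list (1.69) and the NF-kB list (0.87) lie furthest to the right.

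At 2 h, in other libraries and with 3'SL in both groups, 1446 genes rose (8.65%) and 1165 fell (6.97%). The treatment label of the replicate 1 libraries titled 2 h reads 1 h, and the titles were followed. Of the 912 genes that rose at 6 h, 671 also rose at 2 h (73.6% of the 912 and 46.4% of the 1446), and of the 530 that fell, 347 also fell (65.5% and 29.8%). The median change of the NF-kB list was 1.31 at 2 h and 0.87 at 6 h, that of the interferon list 1.68 and 1.69, and that of cholesterol synthesis 0.19 and 0.67. The difference between the times was tested in the same model, and no gene passed (0% in either direction). At an unadjusted p under 0.05 were 1122 genes. The edgeR test called 0 and DESeq2 called 56, of which 47 were higher at 6 h.

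Some genes with a small p in that test were named after their values were seen. Ccnd1 held 667 and 464 normalised tags with 3'SL alone and 360.2 and 246 with LPS added at 2 h, and it fell at 2 h (-0.90, adjusted p = 0.0133) and rose at 6 h. It was the 1 gene called in opposite directions at the 2 times, and the difference of 1.74 had an adjusted p of 0.237. Slc37a2, a sugar phosphate transporter of macrophages, was at -1.66 at 2 h and -0.22 at 6 h (adjusted p of the difference 0.228). Ctsd fell at 2 h (-1.14, adjusted p = 0.000981) and was at -0.08 at 6 h; the difference had an adjusted p of 0.33. For Acod1 the change was 3.56 at 2 h and 4.93 at 6 h, and for Ccl5 3.85 and 3.07, with adjusted p of the differences of 0.629 and 0.682.

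Without 3'SL, LPS against PBS at 6 h raised 658 genes (3.94%) and lowered 650 (3.89%), with 1 PBS library, which is assumed to vary like the other groups. Of the 912 genes that rose under 3'SL, 511 also rose without it (56.0% of the 912 and 77.7% of the 658), and of the 530 that fell, 394 also fell (74.3% and 60.6%). No gene passed the test of the difference between the responses with and without 3'SL (0% in either direction), with 435 genes at an unadjusted p under 0.05, and edgeR and DESeq2 called 0. Socs3 changed by 2.87 without 3'SL and 2.38 with it (adjusted p of the difference 1), and Edn1 by 2.28 and 1.61 (1). The NF-kB list had a median of 1.00 without 3'SL and 0.87 with it, and the interferon list 1.35 and 1.69. A difference that misses the threshold here does not show that the responses were alike. The counts and overlaps of LPS against PBS are of calls with the block, and far fewer genes were called without it.

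**Figure D5:**
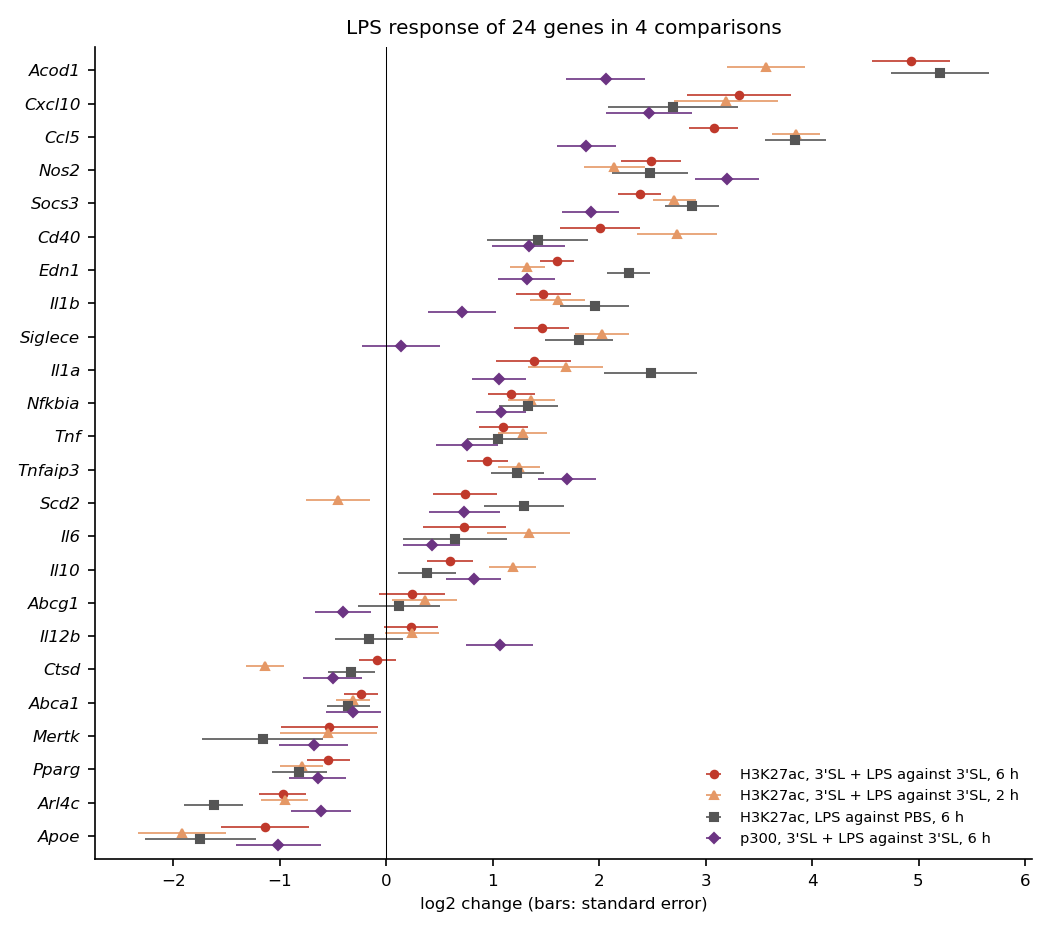
Log2 changes with standard errors (bars) of 24 genes in 4 comparisons: H3K27ac at 6 h and at 2 h with 3'SL in both groups, H3K27ac of LPS against PBS at 6 h, and p300 at 6 h with 3'SL in both groups. Acod1, Cxcl10, Ccl5, Nos2 and Socs3 lie far to the right in all 4, and Il12b, Abca1 and Abcg1 near 0 in the H3K27ac comparisons.

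p300, an enzyme that places the mark, was measured in other libraries of the same treatments, with 8.48% and 22.3% of the tags in regions for 3'SL alone and 9.004% and 23.5% with LPS added, against 4.77% in its input. Of 15971 genes, 385 rose (2.41%) and 195 fell (1.22%), and without the block 11 rose (0.0689%) and 1 fell (0.00626%). Of the 902 genes that rose for H3K27ac and were measured for p300, 275 rose for p300 too (30.5%, and 71.4% of the 385), and of the 527 that fell, 104 fell (19.7%, and 53.3% of the 195). None was called in opposite directions. Over 15668 genes measured for both, Pearson's r of the changes was 0.50 and Spearman's rho 0.47, as a description across genes, which are not independent replicates.

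By gene, p300 at Ptges held 15 and 6.72 with 3'SL alone and 297 and 178 with LPS added (log2 change 4.37, adjusted p = 5.11e-08). At Nos2 it held 61.5 and 21.8 with 3'SL alone and 511 and 235 with LPS added (log2 change 3.20, adjusted p = 5.59e-07), and at Socs3 342 and 505 with 3'SL alone and 1648 and 1507 with LPS added (log2 change 1.92, adjusted p = 9.66e-05, and 0.0622 without the block). In these genes both p300 libraries with LPS were above both controls, as for H3K27ac. The share of all genes without overlap between the groups was 33.8% for H3K27ac and was not counted for p300. St6gal1 held 824 and 2478 with 3'SL alone and 368 and 468 with LPS added (log2 change -1.78, adjusted p = 0.0064, and 0.378 without the block) and Gpr34 220.0 and 244 with 3'SL alone and 27.3 and 63 with LPS added (log2 change -2.45, adjusted p = 0.000372, and 0.129), lower in both libraries with LPS. For some genes p300 gave no call: Il1b held 220.0 and 567 with 3'SL alone and 644 and 520.3 with LPS added (log2 change 0.71, adjusted p = 0.266) and Siglece 50.6 and 73.9 with 3'SL alone and 72.5 and 63 with LPS added (log2 change 0.14, adjusted p = 0.905), and the libraries of the groups overlapped. Of the NF-kB list 14 of 43 rose for p300, and of the interferon list 12 of 40, beside 2.41% of all genes. Without the block, 11 genes in all rose for p300. Without 3'SL with LPS replicate 1, 179 genes rose and 250 fell for p300; without its replicate 2, 162 and 45; and without 3'SL alone replicate 1 or 2, 282 and 159 rose and 86 and 52 fell.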

How the data were processed

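H3K27ac and p300 ChIP-seq libraries of mouse bone marrow-derived macrophages were used. Per the submitters' processing notes, Bowtie2, HOMER and DESeq2 were used with the build mm10. Per the file headers, the deposited tables hold signal made by the authors with HOMER: tags in a window of 1000 bp (H3K27ac) or 200 bp (p300) around each region, scaled to 10000000 tags per library. Whole tags were recovered for 100% of regions (tolerance 0.05), with totals from the headers. Of the columns of per-sample values, 10 matched no sample and were not used.

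Regions and genes passing edgeR's filterByExpr (edgeR 4.0.16) were rescaled by TMM over tags in tested regions and tested as log2(value + 1) with limma 3.58.1 in R 4.3.3, in a group-means model over 15 H3K27ac (14 p300) libraries with the replicate number as a block, leaving 6 (5) residual degrees of freedom. P-values were two-sided and Benjamini-Hochberg adjusted. The samples were paired by the replicate number in the labels. The difference between the replicates of a group correlated between groups by 0.445 to 0.670 over 21 pairs of groups (p300 0.192 to 0.377 over 15). A difference common to all libraries of the same number also gives such a correlation, so it does not show that single libraries were matched. Replicates differed by more than counting noise (chi-square per degree of freedom 8.34 to 28.8), and counting intervals cover counting error only. Windows overlap in 19.8% of cases, so some tags count in more than 1.

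Named genes were up to 4 called members per list, well-known genes, and the 10 largest rises and falls with at least 100 normalised tags; named regions were 8 each way with at least 50. The members, lists and the use of the block were chosen with earlier results of these data known, including that the block raises the number of calls in a related comparison. Alternatives were no block, other scaling, tools, filters and regions, thinned libraries, and leaving out each library. The script was tested on simulated data.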

Additional observations from a re-analysis of the deposited data

How the results depend on the processing

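Leaving out 1 library gave 2588 to 5426 changed regions against 7550, 429 to 798 genes against 1442, and for p300 207 to 429 genes against 580. Of 61 named genes that passed, 29 passed without any 1 library and 10 lost the call whichever library was left out. Without the replicate block 498 regions, 112 genes and 12 p300 genes changed, and by edgeR without it 300, 75 and 10; 14 of the 61 named genes kept the call without the block and 10 with edgeR. The pairing comes from the labels' numbers. Libraries thinned to the shallowest gave 5002 regions and 231 p300 genes, and windows within 1000 bp of a start alone gave 572 genes. DESeq2 called 56 genes for the difference between 6 h and 2 h, against 0. The cause was not tested. No named gene reversed.

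The share of called genes that rose was 63.2%, but 41.1% on the authors' scaling, 50.1% by DESeq2 and 47.0% over merged H3K27ac peaks. For regions it was 67.2%, 51.0% on the authors' scaling and 54.1% by DESeq2. For p300 it was 66.4%, 81.0% on the authors' scaling and 41.7% without the replicate 1 library of 3'SL with LPS. Of the named genes, 52 of 61 kept the call on the authors' scaling, 61 with a pseudocount of 5, 61 with no filter and by DESeq2, 60 by edgeR with the block, 59 in a fit of the 4 libraries alone, 54 over merged H3K27ac peaks and 53 with thinned libraries. In regions within 1000 bp of a start, 35 of 48 kept it; Fosb (-0.94, adjusted p = 0.394), Nfkbia (0.40, 0.16), Fads1 (-0.57, 0.368), Irak2 (0.57, 0.267) and Siglecg (0.13, 0.955) were among the 13 that did not. Pparg passed on the authors' scaling (adjusted p = 0.0422), by DESeq2 (0.0297), with the 4 libraries alone (0.0333) and over merged peaks (0.0271), and Apoe with the 4 libraries alone (0.0122) and over merged peaks (0.0329). Depth limits the lowest regions, since the control replicate 2 library held 4.20 M tags.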

Other observations

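For the LPS response with against without 3'SL, the gene with the smallest p was Chsy3, a chondroitin synthase, with a log2 change of 0.01 under 3'SL and 3.85 for LPS against PBS (adjusted p of the difference 0.481). Gpn1, a GTPase, was at -1.22 and 1.64 (adjusted p of the difference 0.908). Both were named after their values were seen, and the comparison without 3'SL has 1 PBS library.

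Between 6 h and 2 h under 3'SL, Acta1, an actin gene, was at 0.07 and -1.94, and 5031439G07Rik at -0.13 and -1.39 (adjusted p of the differences 0.237 and 0.228). Both were named after their values were seen.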
